A study of Mus musculus with 18 samples.

Results

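Transcripts of 9 genes of the upper beta-adrenergic pathway were followed in mouse gracilis muscle: the receptors Adrb1 and Adrb3, the stimulatory G protein alpha subunit gene Gnas, the adenylyl cyclases Adcy2, Adcy6 and Adcy9, the beta-arrestins Arrb1 and Arrb2, and the receptor kinase Grk2. Members were the probe sets (groups of short probes summarised as 1 signal) of the MOE430A and MOE430B arrays to which the platform annotation gives 1 of these symbols or an older one. Of the 9 genes, 6 had such a probe set, among 18161 genes with a named probe set, and they had 14 probe sets among 45037 on the 2 chips. No probe set was named for Adrb1, Adrb3 or Grk2 in the annotation used here, so no level is given for them.

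Clenbuterol is an agonist of beta-adrenergic receptors that increases muscle mass. Male C57BL/6J mice, given as 3 to 5 weeks of age, were first acclimated and then injected intraperitoneally on 10 days. The C group received vehicle on all days, the 24 h group received vehicle for 9 days and then 1 injection of clenbuterol at 1 mg/kg, and the 10 D group received clenbuterol at this dose on all 10 days. Tissue was collected 24 h after the final injection in all groups, so the 10 D group was also measured 24 h after a dose. The study chose 27 mice by how far blood urea nitrogen and body weight gain differed between groups, and RNA of 3 mice was combined at random into each of 3 pools per group. Treatments had been given to whole cages, so pools may share cages, and the spread between single mice is not seen. The muscle holds vessels, fat, nerve and connective tissue beside its fibres, and fewer cells of a type and less RNA per cell cannot be told apart.

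An occupied beta-adrenergic receptor activates the stimulatory G protein, whose alpha subunit turns on adenylyl cyclase, and the cyclic AMP made by the cyclase activates protein kinase A and other effectors. Receptor kinases phosphorylate the occupied receptor, and beta-arrestins then bind it, uncouple it from the G protein and help to take it into the cell. In skeletal muscle this pathway acts on glycogen breakdown, calcium handling and fibre growth, and continued stimulation is known to lower the response of the receptor.

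A level is the signal of a probe set over the array median, and changes are on the log2 scale. Levels are compared between groups for the same probe set, not between probe sets. The median signal of the 18 arrays, which sets how far a probe set stands above the dimmest values, lay between 13.2 and 88.4. A probe set was tested when its mean log2 signal was at or above the 25th percentile on the chip, which kept 33752 probe sets and 11 of the 14 members. It was called at an adjusted p under 0.1 in limma, with Benjamini-Hochberg adjustment over all 33752. Without 10 D pool 2, 432 probe sets were called at 24 h against C in place of 154, and where leaving out this pool turned a member's change at 10 D against C or moved it by over 1.5 times, the value without it is given. Summed levels of 11 muscle fibre markers lay between 1639 and 2258 in the 24 h pools and between 1838 and 2915 in the C pools.

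RefSeq windows of the 250 bases before a transcription start (GRCm38.p6) were matched for 4 of the 9 members. They are shown for Adcy9, the cyclase with the 1 called probe set, and for Adcy2, the other cyclase with a window. The motif bound by CREB, a transcription factor that protein kinase A phosphorylates, was searched on both strands as TGACGTCA and in a shorter form as TGACG or CGTCA, both of which lie within the longer one, and a match to the shorter form is in capitals. The Adcy9 window was chr16:4420499-4420748 and the Adcy2 window chr13:68999542-68999791, both on the minus strand.
Adcy9: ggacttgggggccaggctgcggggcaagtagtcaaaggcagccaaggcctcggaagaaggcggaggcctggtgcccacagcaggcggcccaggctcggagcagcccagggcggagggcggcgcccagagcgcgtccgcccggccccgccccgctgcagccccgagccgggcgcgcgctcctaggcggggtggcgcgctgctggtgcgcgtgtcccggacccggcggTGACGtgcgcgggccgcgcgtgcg
Adcy2: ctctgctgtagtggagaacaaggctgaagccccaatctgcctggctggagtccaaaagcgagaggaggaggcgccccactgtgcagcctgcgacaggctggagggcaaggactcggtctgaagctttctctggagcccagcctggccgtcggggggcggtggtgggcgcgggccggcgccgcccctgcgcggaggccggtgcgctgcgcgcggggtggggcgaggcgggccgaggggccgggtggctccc
The Adcy9 window precedes a start 16738 bases inside the annotated locus, downstream of its 5′ end. The shorter form began 24 bases before this start (position -24), and no match lay in the Adcy2 window. Of the 4 Gnas windows, 3 held it, beginning at -38, -57 and -216, of which the matches at -38 and -57 were the same bases seen from neighbouring starts, and the Adrb1 window held it at -90. None of these 7 windows held TGACGTCA. Over all 32851 windows of this length, 17.8% held the shorter form and 1.55% the longer one. A match describes the letters only, and binding was not measured.

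Adcy9, which encodes a widely expressed membrane adenylyl cyclase that is activated by the stimulatory G protein, was lower 24 h after 1 injection, by the test on 1 of its probe sets. It lies at chr16:4284886-4437236 and was read by 4 probe sets, more than any other cyclase among the members. On 1419811_at the levels were 9.15, 8.19 and 10.7 in C pools, 4.49, 3.49 and 5.0 in 24 h pools and 8.51, 8.0 and 7.49 in 10 D pools. All 24 h pools lay below all C and all 10 D pools, and the 10 D range overlapped that of C. The level averaged 4.33 ± 0.76 at 24 h and 9.35 ± 1.27 in C (SD, n = 3 each), a log2 change of -1.12 (SE 0.21), or 0.460 times the C level, and this was the 1 member probe set called (limma, adjusted p = 0.084). The change was between -1.23 and -0.97 under all 22 alternative settings and was called in 13 of them. Leaving out any 1 of the C or 24 h pools, or 10 D pool 3, ended the call, with adjusted p between 0.153 and 0.326, as did a fit without the intensity trend (0.163) and ordinary tests without moderation (0.119).

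The other Adcy9 probe sets had lower means at 24 h than in C as well, but none of them was called. On 1449620_s_at the levels were 5.73, 5.65 and 8.57 in C pools, 3.30, 2.34 and 2.99 in 24 h pools and 6.31, 4.68 and 4.13 in 10 D pools, with a log2 change at 24 h against C of -1.20 (SE 0.26, limma adjusted p = 0.126). The annotation gives this probe set the same source sequence as 1419811_at, and across the 9 pools their log2 levels correlated at r = 0.95, so they are not independent readings of the gene. The brightest probe set, 1418586_at, had levels of 15.3, 19.0 and 12.3 in C pools, 11.2, 8.42 and 8.30 in 24 h pools and 12.7, 15.6 and 14.9 in 10 D pools. Its 24 h pools again lay below all C pools, with a log2 change of -0.73 (SE 0.23, limma adjusted p = 0.351). On 1434454_at, the MOE430B probe set, levels were 3.78, 2.78 and 3.45 in C pools, 1.36, 1.51 and 2.35 in 24 h pools and 4.62, 0.57 and 4.03 in 10 D pools. Here 10 D pool 2 stood far below the other 10 D pools and below all 24 h pools. The log2 change of 1434454_at at 24 h against C was -0.97 (SE 0.63, limma adjusted p = 0.730). With each gene reduced to the median of its tested probe sets, Adcy9 was called among 15162 genes. Its log2 change was then -1.16 (SE 0.22, limma adjusted p = 0.062). In each of the 9 pools this median lay between 1419811_at and 1449620_s_at, which are not independent readings. It therefore did not take in the levels of 1418586_at and 1434454_at. When the brightest probe set stood for each gene, 0 of the 6 member genes were called, against 0.706% of the 15162 genes.

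**Figure D1:**
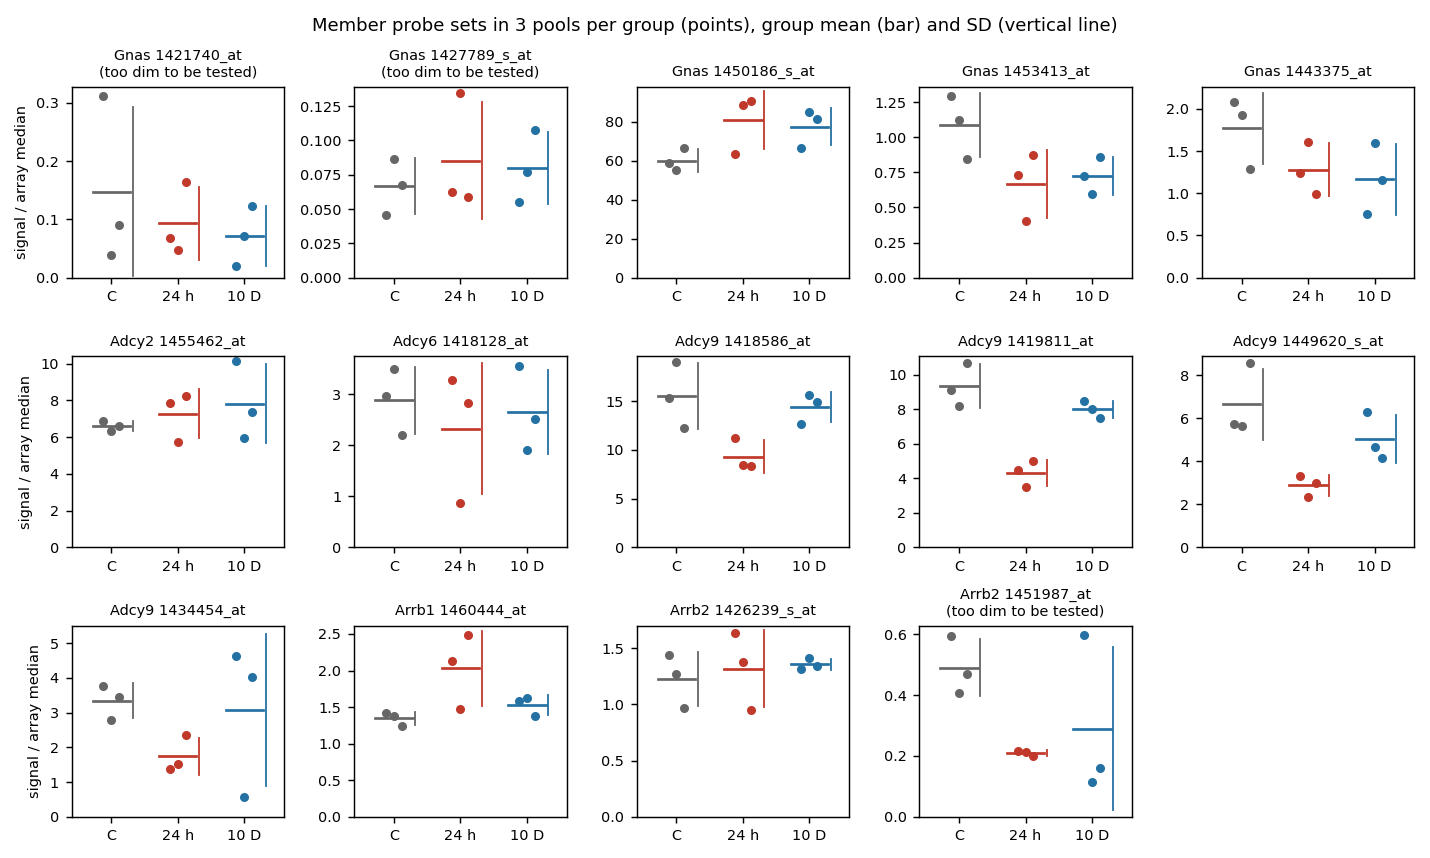
Level (signal divided by the array median, linear axis starting at 0) of the 14 member probe sets in the 3 pools of C, 24 h and 10 D, with the group mean as a bar and the SD as a vertical line (cut at 0). The 4 Adcy9 panels show all 24 h pools below all C pools, while the brightest Gnas probe set shows overlapping pools at 24 h.

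After 10 days the Adcy9 levels were nearer to C. The log2 change of 10 D against C was -0.22 (SE 0.21) on 1419811_at, -0.40 (SE 0.26) on 1449620_s_at and -0.09 (SE 0.23) on 1418586_at, none of them called. On 1434454_at it was -0.59 (SE 0.63). Without 10 D pool 2 it was 0.38 on 1434454_at and -0.16 on 1418586_at. The 10 D minus 24 h differences were 0.90 (SE 0.21), 0.80 (SE 0.26) and 0.64 (SE 0.23) on the probe sets 1419811_at, 1449620_s_at and 1418586_at, and their 10 D pools lay above all 24 h pools. The smallest limma adjusted p of the members for this difference was 0.379, on 1419811_at, so the higher level at 10 D than at 24 h did not pass the test.

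**Figure D2:**
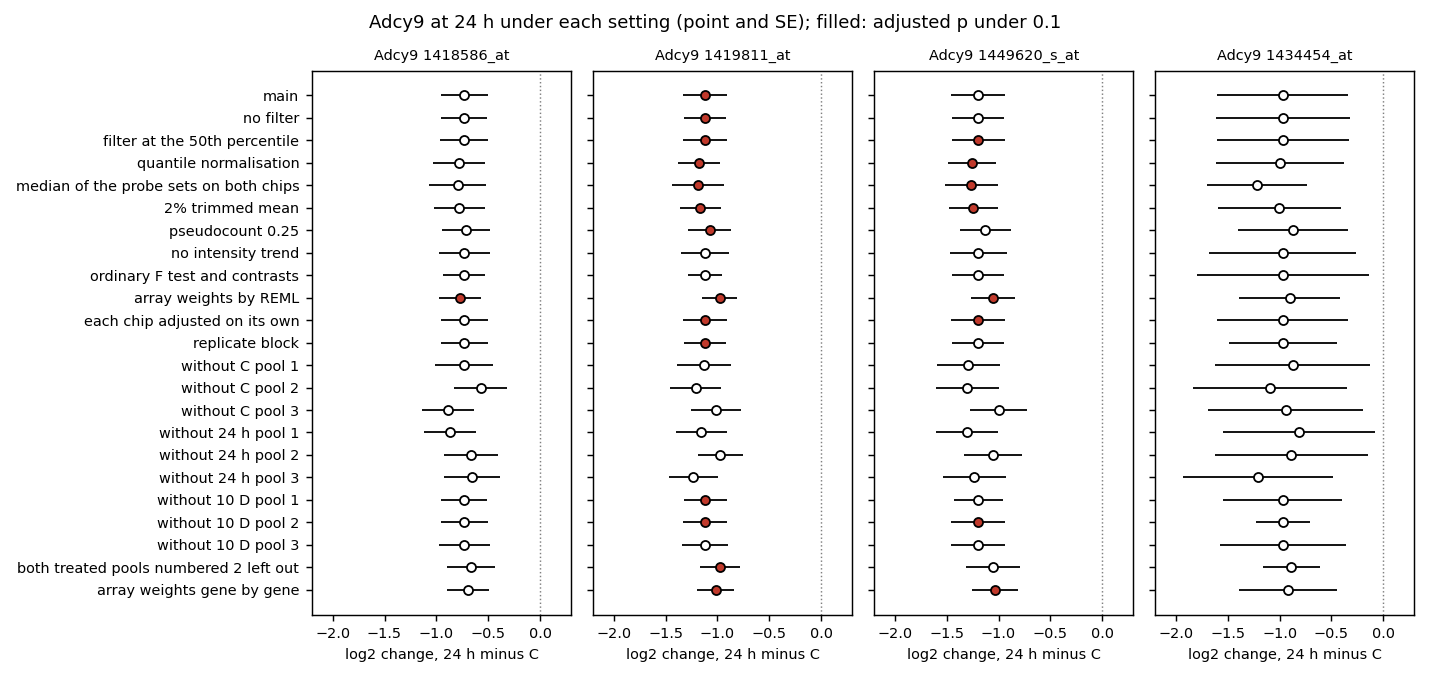
The log2 change of the 4 Adcy9 probe sets at 24 h against C (horizontal axis) under the main setting and 22 alternatives (rows), as point and SE, filled where the adjusted p was under 0.1. All points lie left of 0, and filled points are frequent for 1419811_at and absent for 1434454_at.

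Gnas encodes the alpha subunit that couples the receptor to adenylyl cyclase, and its locus at chr2:174284320-174346744 is imprinted, with several transcripts that start at different promoters and an antisense transcript. None of its 5 probe sets was called, and the means of the tested ones did not go the same way. The brightest, 1450186_s_at, was at the 99.2 percentile of its chip, with levels of 58.7, 55.1 and 66.6 in C pools, 63.7, 88.4 and 90.6 in 24 h pools and 66.6, 85.0 and 81.2 in 10 D pools. In each treated group pool 1 was within the C range or at its edge, and pools 2 and 3 were above it. The log2 change was 0.41 (SE 0.21, limma adjusted p = 0.647) at 24 h against C and 0.36 (SE 0.21, limma adjusted p = 1.0) at 10 D against C.

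The other tested Gnas probe sets had lower means in both treated groups than in C. On 1453413_at the levels were 1.29, 1.12 and 0.85 in C pools, 0.73, 0.40 and 0.87 in 24 h pools and 0.72, 0.59 and 0.86 in 10 D pools, with a log2 change of -0.75 (SE 0.35, limma adjusted p = 0.604) at 24 h. On 1443375_at they were 2.09, 1.93 and 1.29 in C pools, 1.24, 1.61 and 0.99 in 24 h pools and 0.75, 1.59 and 1.16 in 10 D pools, with a log2 change of -0.46 (SE 0.37) at 24 h and -0.63 (SE 0.37) at 10 D, each against C. The treated pools overlapped the C pools in both. Across the 9 pools the log2 levels of 1450186_s_at and 1453413_at correlated at r = -0.66, a description over pools that share the 3 treatments. Which Gnas transcript each probe set reads was not checked. The remaining probe sets, 1421740_at and 1427789_s_at, had levels of at most 0.312 and 0.134 and were too dim to be tested.

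The other cyclases among the members did not pass the test at either time. Adcy2 encodes a cyclase that G protein beta and gamma subunits can activate, and lies at chr13:68620043-68999600. Its probe set 1455462_at had levels of 6.86, 6.31 and 6.62 in C pools, 7.86, 5.75 and 8.22 in 24 h pools and 10.2, 5.95 and 7.34 in 10 D pools. The C pools were close together, while pool 2 was the lowest in each treated group and below all C pools. The log2 change was 0.12 (95% interval -0.42 to 0.67) at 24 h and 0.21 (-0.33 to 0.76) at 10 D, each against C. Adcy6, at chr15:98589978-98610287, encodes a cyclase that calcium and protein kinase A inhibit. Its probe set 1418128_at had levels of 2.96, 3.49 and 2.19 in C pools, 3.28, 0.87 and 2.82 in 24 h pools and 3.54, 1.91 and 2.52 in 10 D pools, so 24 h pool 2 stood far below the rest. The log2 change of Adcy6 was -0.50 (95% interval -1.54 to 0.54) at 24 h and -0.14 (-1.17 to 0.90) at 10 D, each against C, and without 24 h pool 2 the change at 24 h was 0.10. Without 10 D pool 2 the change at 10 D was 0.08 for Adcy6 and 0.39 for Adcy2. The intervals of Adcy6 reach changes as large as that of Adcy9 1419811_at at 24 h (-1.12), and those of Adcy2 do not.

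Over the whole cyclase family, Adcy1, Adcy3, Adcy4, Adcy5, Adcy7 and Adcy10 gave 0 calls in any comparison by limma, and the probe set of Adcy8 was too dim to be tested. Adcy4 1418098_at, a cyclase gene expressed in vessels, averaged 1.44 ± 0.10 at 24 h and 0.87 ± 0.30 in C (SD, n = 3 each), with all 24 h pools above all C pools, and its log2 change of 0.79 (SE 0.36) had an adjusted p of 0.596. Adcy5, a cyclase close to Adcy6 in sequence, had log2 changes between -0.98 and 0.35 at 24 h on its 4 tested probe sets. On the lowest of these, 1443080_at, all 24 h pools lay below all C pools (log2 change -0.98, SE 0.51, limma adjusted p = 0.643). The Adcy9 probe sets thus held the only call among the cyclase probe sets, but the difference between Adcy9 and any other cyclase was not tested.

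**Figure D3:**
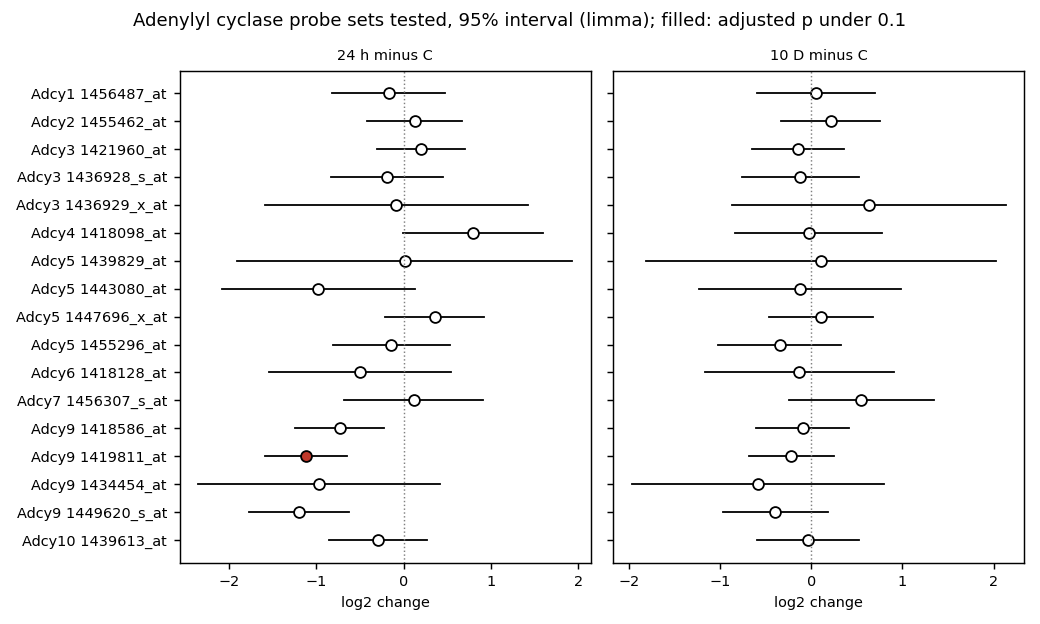
The log2 change with its 95% interval (limma) for each tested adenylyl cyclase probe set (rows), 24 h minus C at left and 10 D minus C at right, filled where the adjusted p was under 0.1. Only Adcy9 1419811_at at 24 h is filled, and the wide bars of Adcy5 1439829_at and Adcy9 1434454_at show how little those probe sets resolve.

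The beta-arrestin probe sets lay near the array median or below it, and none was called. Arrb1, at chr7:99535147-99606772, encodes beta-arrestin 1, and its probe set 1460444_at had levels of 1.42, 1.37 and 1.25 in C pools, 2.14, 1.47 and 2.48 in 24 h pools and 1.58, 1.62 and 1.38 in 10 D pools. All 24 h pools lay above all C pools, pool 2 narrowly, and the 10 D pools overlapped both groups. The log2 change was 0.56 (SE 0.24) at 24 h against C, with a limma adjusted p of 0.566, and 0.18 (SE 0.24) at 10 D against C. Arrb2, at chr11:70432485-70440828, encodes beta-arrestin 2, and on 1426239_s_at it had levels of 1.44, 1.27 and 0.96 in C pools, 1.63, 1.38 and 0.95 in 24 h pools and 1.31, 1.41 and 1.34 in 10 D pools. Its groups overlapped, with a log2 change of 0.09 (95% interval -0.51 to 0.69) at 24 h and 0.16 (-0.43 to 0.76) at 10 D, each against C. The other Arrb2 probe set, 1451987_at, was too dim to be tested, with levels of 0.59, 0.41 and 0.47 in C pools, 0.22, 0.21 and 0.20 in 24 h pools and 0.60, 0.11 and 0.16 in 10 D pools. Its 24 h pools lay below all C pools, with a log2 difference of -1.21, unlike those of 1426239_s_at. The kinases of the same family that had a tested probe set, Grk3, Grk4, Grk5 and Grk6, gave 0 calls, with log2 changes at 24 h against C between -1.38 (Grk3 1440801_s_at) and 0.69 (Grk5 1436672_at).

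**Figure D4:**
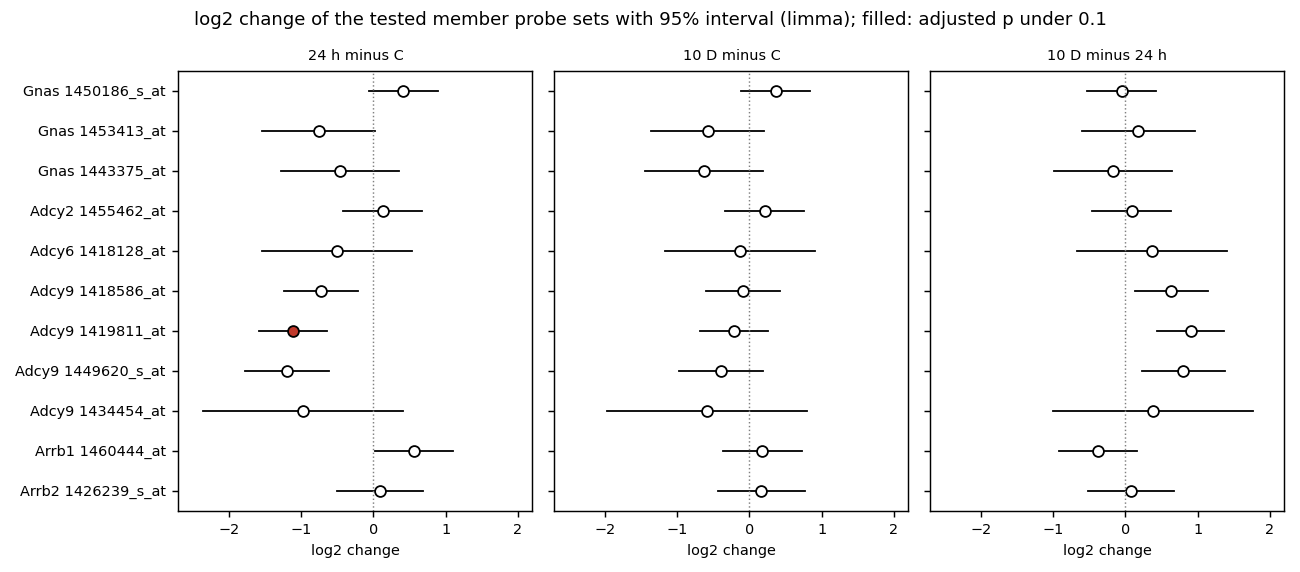
The log2 change with its 95% interval (limma) for the 11 tested member probe sets (rows) in the 3 comparisons, 24 h minus C, 10 D minus C and 10 D minus 24 h, filled where the adjusted p was under 0.1. The 4 Adcy9 points lie between -1.20 and -0.73 for 24 h minus C, between -0.59 and -0.09 for 10 D minus C and to the right of 0 for 10 D minus 24 h.

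Counted over the 11 tested member probe sets, the 24 h group against C had 1 call (adjusted p under 0.1), which was lower, where 0.456% of all tested probe sets were called in either direction and 0.127% as lower. Unadjusted p was under 0.05 for 4 of the 11, against 8.55% of all, and 3 of these 4 were Adcy9 probe sets, which read 1 gene. All 24 h pools lay below all C pools in 4 of the 11 tested members, each an Adcy9 probe set, and above them in 1, Arrb1, against 7.23% and 9.6% of all tested probe sets. The untested Arrb2 1451987_at also had its 24 h pools below all C pools. The median change of the members was -0.50, beside 0.02 over all tested probe sets. With the brightest probe set for each of the 6 genes it was 0.11. Of the 11 values, 4 are of Adcy9 and 3 of Gnas, and this choice keeps 1 of each. For Gnas it keeps 1450186_s_at (0.41) and leaves out 1453413_at (-0.75) and 1443375_at (-0.46). Another scaling, to the median of the probe sets on both chips, moved the median over all to -0.13, and with it 1419811_at changed by -1.19. Of the calls at 24 h over all probe sets 72.1% were higher, against 54.3% with quantile normalisation, 58.2% with a trimmed mean and 33.3% with that scaling.

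For 10 D against C limma called 0 of the 11 members and 0% of all tested probe sets, and 0 members had an unadjusted p under 0.05, against 4.56% of all. All 10 D pools lay above all C pools in 1 member, Gnas 1450186_s_at by a narrow margin, and below them in 0, against 5.76% and 4.52% of all. The median change was -0.14, beside 0.01 over all, and 0.17 over the 6 genes with their brightest probe sets. For 10 D against 24 h limma called 0 members, against 0.0504% of all. Unadjusted p was under 0.05 in 3, against 5.48%, and all 10 D pools lay above all 24 h pools in the same 3, all Adcy9, against 4.17%. The F test over the 3 groups called 0 members, against 0.216%, with 3 at an unadjusted p under 0.05, against 6.62%, and the smallest adjusted p was 0.175 for Adcy9 1419811_at.

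Around the members, 99 further genes of the pathway were listed, of which 90 had a probe set and 83 were tested on their brightest one. At 24 h against C 1 was called higher and 1 lower, beside 79 higher and 28 lower of 15162 genes (0.706% in all), and at 10 D against C 0 were called, as over all genes. The median change of the 83 at 24 h was 0.03, beside 0.04 over 15162 genes. Crem encodes a cyclic AMP responsive transcription factor with activating and repressing isoforms. Its probe set 1449037_at had levels of 1.53, 1.03 and 0.83 in C pools, 2.96, 2.65 and 4.54 in 24 h pools and 2.17, 1.54 and 1.95 in 10 D pools. All treated pools lay above all C pools, 10 D pool 2 narrowly, and the log2 change at 24 h against C was 1.59 (SE 0.30, limma adjusted p = 0.086). The other Crem probe sets had log2 changes of 0.63 and -0.52, not called, and which isoforms they read was not checked.

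Akap6 encodes an anchoring protein that holds protein kinase A at the nuclear envelope and sarcoplasmic reticulum of muscle cells. Its probe set 1440859_at had levels of 17.3, 17.7 and 15.4 in C pools, 4.56, 4.20 and 6.48 in 24 h pools and 16.0, 6.59 and 13.5 in 10 D pools, with the 24 h pools below all others and 10 D pool 2 close to them. The log2 change at 24 h against C was -1.75 (SE 0.31, limma adjusted p = 0.059), and the other Akap6 probe set changed by 0.23, not called. Leaving out any C or 24 h pool, or 10 D pool 3, ended the calls of Crem and of Akap6, with adjusted p between 0.136 and 0.335 for Crem and between 0.101 and 0.263 for Akap6. Both calls were also lost without the intensity trend and with ordinary tests, that of Crem without a filter on dim probe sets (adjusted p = 0.112), and that of Akap6 with each chip adjusted on its own (0.102).

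Of the pathway genes that were not called, those with the smallest F test p-values in their lists are given here, apart from Adra2c, Gna13 and Adcy7, whose F test p was above 0.1 in each, and Adcy4, given above. Arrdc2 and Arrdc4 encode arrestin-domain proteins related to the beta-arrestins. Arrdc2 1428352_at had levels of 3.69, 2.28 and 4.52 in C pools, 1.70, 2.39 and 1.10 in 24 h pools and 5.79, 3.69 and 10.5 in 10 D pools. Its 10 D pools lay above all 24 h pools, with a log2 difference of 1.88 (SE 0.41, limma adjusted p = 0.272). Arrdc4 1426818_at averaged 1.40 ± 0.20 at 24 h and 0.70 ± 0.22 in C (SD, n = 3 each), with a log2 change of 1.03 (SE 0.28, limma adjusted p = 0.264), and the other Arrdc4 probe set, 1424759_at, changed by 0.01. Gngt2, a G protein gamma subunit gene known from cone photoreceptors, averaged 2.18 ± 0.79 at 24 h and 0.88 ± 0.23 in C (SD, n = 3 each), with a log2 change of 1.28 (SE 0.36, limma adjusted p = 0.251). Gng8, another gamma subunit gene, had levels of 1.27, 1.42 and 1.24 in C pools, 0.43, 1.40 and 0.56 in 24 h pools and 0.22, 0.41 and 0.41 in 10 D pools. Its 10 D pools lay below all C and all 24 h pools, with a log2 change of -1.98 (SE 0.53, limma adjusted p = 1.0) at 10 D against C. Gnaz, which encodes an inhibitory type of alpha subunit, had dim levels of 0.78 ± 0.19 at 24 h and 0.18 ± 0.10 in C (SD, n = 3 each), and its log2 change of 2.23 (SE 0.73) had a limma adjusted p of 0.357.

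**Figure D5:**
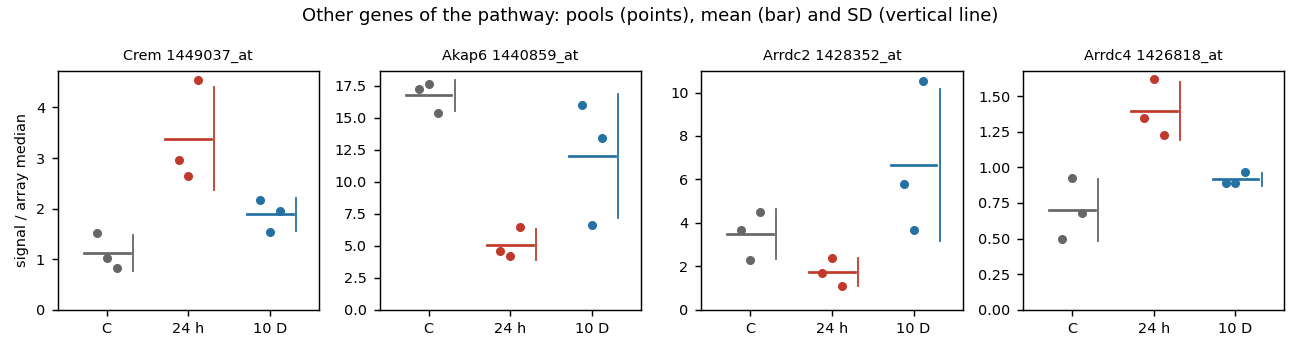
Level (signal divided by the array median, linear axis starting at 0) of Crem, Akap6, Arrdc2 and Arrdc4 in the 3 pools of C, 24 h and 10 D, with the group mean as a bar and the SD as a vertical line. The 24 h pools of Akap6 (4.20 to 6.48) sit below its C pools (15.4 to 17.7), and those of Crem (2.65 to 4.54) above its C pools (0.83 to 1.53).

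By correlation of log2 levels across the 9 pools, the named genes most like Adcy9 1419811_at were D930003E18Rik (r = 0.99), Parp4 (r = 0.97) and Art1 (r = 0.97), where the points share the treatments and the arrays. Art1, an ADP-ribosyltransferase gene of muscle, averaged 16.4 ± 1.8 at 24 h, 33.7 ± 1.2 at 10 D and 33.6 ± 3.1 in C (SD, n = 3 each). In each of the 9 marker lists of muscle and other cell types the summed levels at 24 h overlapped those of C. They lay between 123 and 163 at 24 h and between 126 and 176 in C for 8 adipocyte markers, a sum that is mostly Fabp4, and between 126 and 224 at 24 h and between 160 and 286 in C for 7 fibroblast markers. Fabp4 had a higher mean log2 level at 24 h than in C (change 0.15), while the other 7 adipocyte markers, all 7 fibroblast markers and all 11 muscle fibre markers had lower ones, with median changes over the lists of -0.50, -0.40 and -0.24, and none of these was called. The 6 skin markers summed to 3.82 to 6.18 at 24 h and 5.15 to 23.5 in C, where C pool 3 was the highest. All 6 had lower mean log2 levels at 24 h, Krt14 by only -0.07 (SE 0.49), with a median change of -1.33. Krt10, a keratin of the upper epidermis, had levels of 1.08, 1.08 and 1.06 in 24 h pools and 2.04, 2.83 and 6.43 in C pools, with a log2 change of -1.64 (SE 0.46, limma adjusted p = 0.272). 1 marker passed the test at 24 h against C, the neutrophil gene S100a8 (limma adjusted p = 0.044). It averaged 2.30 at 24 h and 0.145 in C, a dim level. Of the 9 tested macrophage and leukocyte markers, 7 had higher means at 24 h and 2 lower ones, with a median change of 0.07. All 24 h pools lay above all C pools in 2 of them, S100a8 and Cd68 (0.85, not called). The 24 h pools lay below all C pools in 2, Ptprc (-0.99) and Cd79a (-0.97), neither called. The part of other cell types in the change of Adcy9 was not tested.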

How the data were processed

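RNA of 9 pools was measured on 18 arrays. The authors quantified each array with MAS 5.0 and deposited the signal intensity per probe set on a linear scale, not scaled between arrays. No source used here gives the MAS 5.0 settings, a batch or a scan date. Levels were each intensity over its array median, on a log2 scale, with 18 values of 0 replaced by 0.05. There were 22626 probe sets on MOE430A and 22511 on MOE430B, and the 100 shared ones were read on MOE430A only. Gene names came from the platform annotation, updated by gene ID through RefSeq (GRCm38.p6), and 20380 MOE430A and 14661 MOE430B probe sets had 1 symbol. A model with the 3 groups was fitted per chip with limma 3.58.1 in R 4.3.3 (lmFit, eBayes with an intensity trend, 6 residual degrees of freedom), two-sided. An exact permutation test of 3 pools against 3 cannot go below p = 0.1. The fitting code was tested on simulated data with independent noise in each pool, which does not show how reliable the calls on these arrays are. Named are all members, pathway genes that were called, and otherwise up to 2 genes per list with the smallest F test p. The members and lists were chosen with earlier results of these data known. Alternatives covered the filter, scaling, pseudocount, variance model, array weights, replicate block and each pool left out.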

Additional observations from a re-analysis of the deposited data

How the results depend on the processing

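The count of member probe sets called at 24 h against C was 1. It was 2 with a filter at the 50th percentile, quantile normalisation, scaling to the median of probe sets on both chips, a 2% trimmed mean or each chip adjusted on its own, and 0 without the intensity trend or with ordinary tests. With 1 pool left out it was 0 to 2. With 1 value per gene it was 0, and 1 with the median over the probe sets of a gene. For Adcy9 that median lay between 1419811_at and 1449620_s_at, which are not independent readings. Array weights estimated by REML, limma's default here, gave 3 members at 24 h against C, 2 at 10 D against C, 3 at 10 D against 24 h and 5 in the F test, where the main counts of the last 3 were 0. That estimate stopped before it converged and called 4265 probe sets in the F test, against 73 without weights. Weights estimated gene by gene, chosen after seeing this, gave 2, 0, 0 and 2 members in the same order, and 816 probe sets in the F test. Leaving out both treated pools numbered 2 was also chosen after seeing the data, and gave 1 member at 24 h against C. Same-numbered pools of C and a treated group did not deviate together over the tested probe sets (correlations -0.04 to 0.02). Those of 24 h and 10 D did in part, with correlations of 0.24, 0.35 and 0.04 for pools 1, 2 and 3. With a replicate block 1 member was called at 24 h against C and 0 in the other comparisons, with 209 in place of 154 probe sets over all. Of 767 single values under the alternatives, 691 kept their direction and side of the threshold, 29 lost the call, 14 gained it and 33 changed sign with neither value called. Levels near the array median, as for Arrb1 and Arrb2, are limited by the dim signal, and 3 pools per group limit all calls.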
